A study of Homo sapiens with 32 samples.

Results

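The E2F genes encode the transcription factors that switch on genes of DNA replication and cell division as a cell enters S phase, and the members of the family that later switch them off. The 8 members, E2F1 to E2F8, were taken by gene name from the 19970 protein-coding genes that GENCODE 44 places on chromosomes 1 to 22 and X, and the question was which of 4 promoter-binding factors had a ChIP-seq summit within 2000 bp of their 5′ ends, where, and how high in its list. ChIP-seq recovers DNA crosslinked to a protein with an antibody and sequences it. A summit is a local high point of the signal in a called peak, and a peak can hold several. The cells were HEK293T, an established human embryonic kidney line, in the single clone HEK_CloneZD29, whose ZNF143 protein carries a degron tag that lets dTAGV-1 send it for destruction. All groups came from this clone, controls included. ZNF143 was recovered through an HA epitope with an anti-HA antibody, the other factors with antibodies to SP1, NRF1 (Nrf1 in the labels) or YY1, and a mock precipitation was made beside them. Cells were untreated or had been given dTAGV-1 at 50 nM for 30 minutes, in 32 samples: 4 untreated and 4 treated for each of SP1, NRF1 and YY1, and 2 untreated and 2 treated each for ZNF143 and the mock.

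The files held 1 summit list per antibody and no value per sample, so treated and untreated cells were not compared, replicate spread and read depth are unknown, and no test was made between genes. The ZNF143 list was the shortest with 16600 summits, followed by NRF1 (39194), YY1 (106658) and SP1 (126275). Each summit carries a score, the authors' −log10 significance (whether of p or of q is not stated), which grows with depth and was compared only within a list, as a rank in percent where a low percentage is a strong summit. No list of the mock samples was used here, so the background for each count is the same count over all protein-coding genes. Intervals are Wilson 95% intervals, which cover counting error among genes or summits only.

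E2F proteins bind a short T-rich and GC-rich element, E2F1 to E2F6 together with a DP partner and E2F7 and E2F8 without one. E2F1, E2F2 and E2F3 are the activators held in check by the retinoblastoma protein RB1, E2F4 and E2F5 work mainly with its relatives RBL1 and RBL2 in resting cells, E2F6 lacks the pocket-protein binding part and acts with Polycomb proteins, and E2F7 and E2F8 are repressors that E2F activators induce. Several E2F genes are known targets of E2F proteins themselves. Of the factors measured here, SP1 binds GC boxes, NRF1 a GC-rich palindrome, YY1 an element often found just inside the start of transcription, and ZNF143 a longer element found at many promoters.

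The promoter sequences are shown first because they differ among the members in a way the summits can be set against. The window searched ran from 250 bp before to 50 bp after the 5′ end of the gene record, on both strands, for exact words. The E2F words were TTTCCCGC, TTTCCCGG, TTTCGCGC, TTTCGCGG, TTTGCCGC, TTTGCCGG, TTTGGCGC and TTTGGCGG, the SP1 word was GGGCGG, the NRF1 word GCGCATGCG, the YY1 word AANATGGCG, the ZNF143 words CCCANAATG and CCCANCATG, the NF-Y word CCAAT, and the CHR words (an element of mitotic genes bound by the MuvB complex) TTTGAA and TTCGAA. Some overlap: in E2F6 an E2F word runs into an SP1 word, in E2F7 an NF-Y word does, and in E2F1 a pair of E2F words on opposite strands overlap. RefSeq promoter entries on GRCh38.p14, the same bases as hg38, were matched for 6 members, E2F1, E2F2, E2F3, E2F4, E2F6 and E2F7, and sequences of these are printed 5′ to 3′ on the strand of the gene.

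The 4 stretches below carry the E2F words, which are in capitals. They end at the base before the 5′ end of the gene record, and lie at chr20:33686386-33686445 (minus strand) for E2F1, chr1:23531234-23531313 (minus) for E2F2, chr6:20401799-20401878 (plus) for E2F3 and chr2:11466178-11466357 (minus) for E2F6.
E2F1: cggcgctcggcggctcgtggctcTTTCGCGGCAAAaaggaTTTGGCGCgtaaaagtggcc
E2F2: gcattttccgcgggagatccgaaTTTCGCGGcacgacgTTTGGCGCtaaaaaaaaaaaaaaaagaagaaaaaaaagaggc
E2F3: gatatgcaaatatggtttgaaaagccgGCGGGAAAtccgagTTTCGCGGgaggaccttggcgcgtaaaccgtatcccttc
E2F6: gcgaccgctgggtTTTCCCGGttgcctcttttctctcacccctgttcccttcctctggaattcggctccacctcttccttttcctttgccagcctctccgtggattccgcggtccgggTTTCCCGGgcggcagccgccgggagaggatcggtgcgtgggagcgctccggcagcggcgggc

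An E2F word lay in 5 of the 8 member promoters, E2F1, E2F2, E2F3, E2F5 and E2F6, against 7.05% of all protein-coding promoters. E2F1 had 3, E2F2, E2F3 and E2F6 had 2 each, and E2F5 had 1, so that 4 members had 2 or more, as did 0.476% of all promoters (95 of 19970). Measured from the canonical transcripts instead, 6 members had an E2F word. E2F8 was then included, since its word at +473 to +480 bp lies upstream of its canonical start at +675 bp. No share of all promoters is given for that choice of start. In E2F1 and E2F2 the word TTTCGCGG was followed on the gene's strand by TTTGGCGC, with starts 17 bp apart in E2F1 and 15 bp apart in E2F2. When this arrangement, chosen after the sequences were seen, was searched with starts 10 to 25 bp apart, it was found in these 2 promoters alone among all promoters (0.01%). In E2F1 the words lay from −37 to −13 bp, in E2F2 from −57 to −35 bp and in E2F3 from −53 to −32 bp. In all 3 activator genes they thus fell just upstream of the 5′ end. The repressor gene E2F6 also had a word there, from −62 to −55 bp, and another from −167 to −160 bp. Outside the window E2F2 had a further E2F word from −363 to −356 bp.

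The next set shows the NF-Y words (CCAAT, or its reverse complement on the other strand) in capitals, which E2F1, E2F3 and E2F7 carry in number. The stretches are chr20:33686446-33686575 (minus) for E2F1, chr6:20401629-20401768 (plus) for E2F3 and chr12:77065610-77065809 (minus) for E2F7.
E2F1: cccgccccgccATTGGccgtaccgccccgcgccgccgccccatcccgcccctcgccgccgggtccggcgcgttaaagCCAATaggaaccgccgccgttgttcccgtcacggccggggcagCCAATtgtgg
E2F3: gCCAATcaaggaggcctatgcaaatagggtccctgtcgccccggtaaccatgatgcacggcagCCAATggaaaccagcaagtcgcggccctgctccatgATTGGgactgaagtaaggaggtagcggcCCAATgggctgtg
E2F7: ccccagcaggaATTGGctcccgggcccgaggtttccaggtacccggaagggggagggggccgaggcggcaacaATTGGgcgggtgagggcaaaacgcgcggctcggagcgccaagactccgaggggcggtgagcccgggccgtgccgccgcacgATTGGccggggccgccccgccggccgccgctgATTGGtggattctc

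The NF-Y word was present in 4 members, with 4 copies in E2F3, 4 in E2F7, 3 in E2F1 and 1 in E2F8, against 35.9% of all promoters with any. All 4 copies of E2F7 lay on the strand opposite to the gene. The SP1 word was in 7 members, with 6 copies in E2F1 and none in E2F2, against 52.4% of promoters. The CHR word was in E2F3 and E2F8 only, 2 of 8 against 14.7%, and no member had a ZNF143 word in this window, which 2.92% of promoters had. Outside the window a ZNF143 word of E2F7 lay from −787 to −779 bp. The GC content of the member promoters ran from 57.7% in E2F5 to 73.3% in E2F1 with a median of 63%, beside a median of 60.3% over all promoters, and E2F2 (59.7%), E2F3 (58.3%) and E2F5 lay below the latter. Their observed-over-expected CpG ratio ran from 0.792 to 1.14 with a median of 0.946, and all 8 lay above the all-promoter median of 0.697.

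E2F6 was the only member with an NRF1 word or a YY1 word in the window, which 2.36% and 3.51% of all promoters had. The words stand side by side just inside the gene, NRF1 from +24 to +32 bp and YY1 from +35 to +43 bp, both in capitals in the site at chr2:11466130-11466159 (minus strand).
E2F6: tgtactGCGCATGCGggAAGATGGCGggcc

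**Figure D1:**
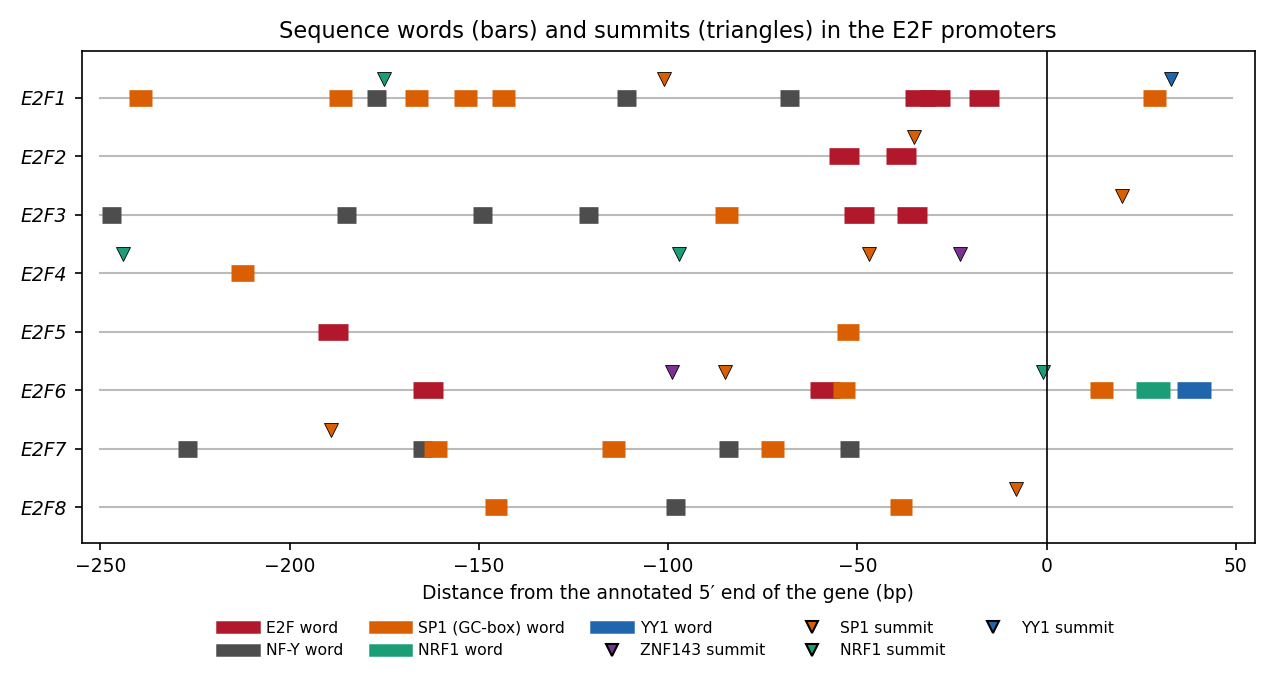
Sequence words other than CHR (bars) and summits of the 4 lists (triangles above them) from 250 bp upstream to 50 bp downstream of the 5′ end of each E2F gene, with distance in bp on the x axis. E2F words cluster close to the 5′ end in E2F1, E2F2 and E2F3, and E2F6 alone has NRF1 and YY1 words, at +24 to +43 bp.

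Every member had an SP1 and a YY1 summit within 2000 bp, 7 of 8 had an NRF1 summit and 6 of 8 a ZNF143 summit. For SP1 and for YY1 the interval of 8 of 8 is 67.6 to 100%, and over all protein-coding genes the share was 66.5% for SP1 and 65.3% for YY1. For NRF1 it was 87.5% (52.9 to 97.8) beside 55.8%, and for ZNF143 75% (40.9 to 92.9) beside 37.4%. Summits of all 4 lists were found at E2F1, E2F3, E2F4, E2F5, E2F6 and E2F8, 6 of 8 members, and at 35.3% of all genes. E2F7 had no ZNF143 summit, and E2F2 had neither ZNF143 nor NRF1. The nearest ZNF143 summits to E2F2 lay 160204 and 160555 bp away, the nearest NRF1 summits 27321 and 127112 bp, and the nearest ZNF143 summits to E2F7 185744 and 1036078 bp. The peak numbers on either side followed each other without a gap in these 3 cases, and whether peaks were renumbered after any filter is not given in the sources used here.

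The highest ZNF143 summit of a member ranked at a median of 81.1% of its list, over the 6 members that had one, while the median over the 7464 genes with a ZNF143 summit was 38.2%. For SP1 the member median was 5.02%, beside 10.8% over 13283 genes. The NRF1 medians were 19.5% and 17.3%, and the YY1 medians 8.45% and 9.74%. Of the 7 ZNF143 summits at members, 0 were in the top 10% of the list and 6 in the lower 50%, beside 14.3% and 51.2% of the ZNF143 summits near protein-coding 5′ ends. Each of the 8 genes had an SP1 summit in the top 10% of its list, as did 31.1% of all protein-coding genes.

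**Figure D2:**
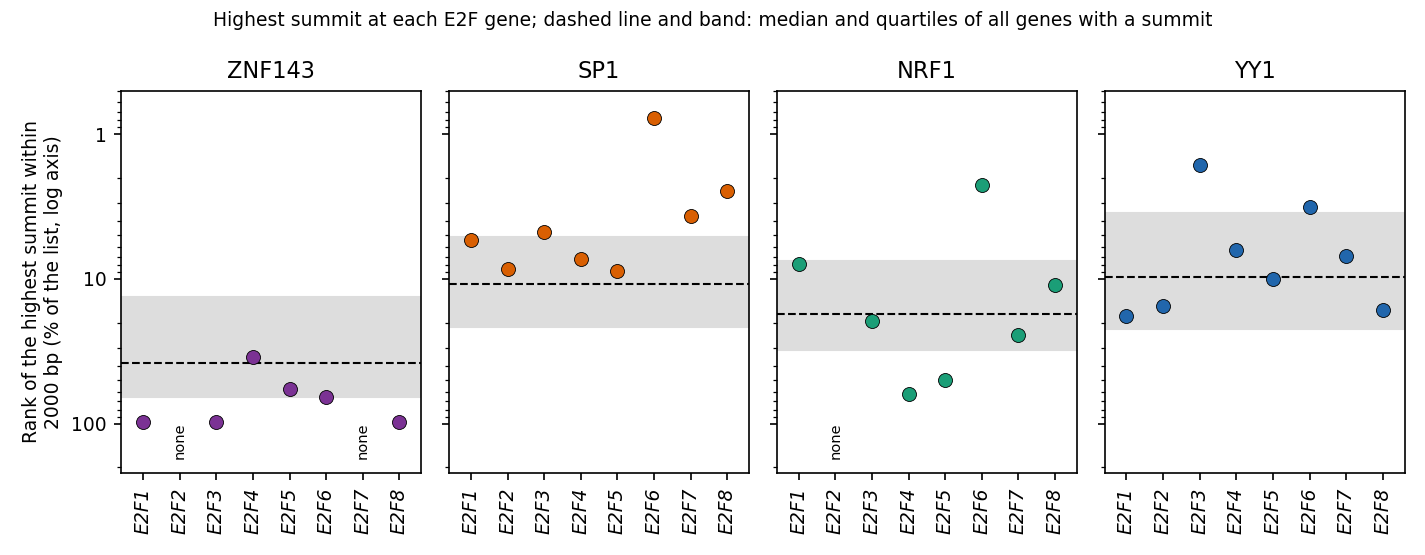
Rank of the highest summit within 2000 bp of each E2F gene, in percent of its list on a log axis with strong summits at the top, 1 panel per list. The dashed line and the band are the median and quartiles over all protein-coding genes with a summit of that list. All 8 SP1 points lie above the dashed line, E2F4 is the only ZNF143 point above it, and E2F6 has the highest SP1 and NRF1 points.

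Within SP1 the order of the highest scores was E2F6 (1805), E2F8 (838), E2F7 (614), E2F3 (494), E2F1 (442), E2F4 (329), E2F2 (276) and E2F5 (269). Within NRF1 it was E2F6 (6914), E2F1 (896), E2F8 (239), E2F3 (39.4), E2F7 (22.3), E2F5 (6.14) and E2F4 (4.44). Within YY1 it was E2F3 (1073), E2F6 (485), E2F4 (231), E2F7 (209), E2F5 (143), E2F2 (86.2), E2F8 (80.9) and E2F1 (70.6). NRF1 thus ran from a rank of 2.23% at E2F6 to 62.6% at E2F4, with none at E2F2. Without replicate values, neighbours in these orders cannot be told apart or ranked with an error.

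E2F1, the activator best known for linking RB1 to S phase, lies on the minus strand of chromosome 20, from 33675477 to 33686385 (ENSG00000101412.13), and its 5′ end is the higher coordinate. It had 10 summits. An NRF1 summit (score 896, rank 7.94%) at −175 bp and an SP1 summit (442, 5.35%) at −101 bp lay upstream, 74 bp apart, over the stretch of SP1 and NF-Y words printed above. YY1 summits lay inside the gene, at +33 bp (70.6, 18.1%) in the untranslated first exon and at +365 bp (43.8, 25.6%) in a coding exon. Further in, an NRF1 summit at +504 bp (3.44) and an SP1 summit at +505 bp (21.4) fell on neighbouring bases, and the ZNF143 summit at +569 bp (2.11, 97.6%) lay 64 bp beyond. The last 3 were weak, an NRF1 summit at +820 bp (4.79), a YY1 summit at +1085 bp (6.46) and an SP1 summit at +1194 bp (4.63). None of the 10 had a whole E2F word within 50 bp.

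E2F2, the second activator, lies on the minus strand of chromosome 1, from 23506438 to 23531233 (ENSG00000007968.7), and had the fewest summits, 4. Its single SP1 summit (276, 8.54%) was at −35 bp, on the edge of the second E2F word printed above, in a promoter with no SP1 word. YY1 had 3 summits, at +242 bp (86.2, 15.5%) in the untranslated first exon, at −271 bp (17.3, 46.0%) and at +951 bp (5.32, 78.3%). Its SP1 summit had both E2F words of the promoter within 50 bp.

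E2F3, the third activator, lies on the plus strand of chromosome 6, from 20401879 to 20493714 (ENSG00000112242.16), and had the most summits, 17, a number that 1.35% of all protein-coding genes reach. At its 5′ end stood the highest YY1 summit of the family at +124 bp (1073, 1.63%), preceded by an SP1 summit at +20 bp (494, 4.70%), with a weak ZNF143 summit between them at +64 bp (2.20, 97.2%). Upstream lay YY1 summits at −491 bp (44.9), −978 bp (32.6) and −1150 bp (28.3), NRF1 summits at −411 bp (39.4), −1053 bp (13.1) and −1465 bp (11.4), and an SP1 summit at −990 bp (86.9). The divergent noncoding gene ENSG00000289981 starts at −376 bp on the other strand, next to the NRF1 summit at −411 bp.

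E2F3 is known for a second, internal promoter that gives a shorter protein. GENCODE places the start of E2F3-202 at +1800 bp, and RefSeq has an entry starting at +1735 bp. Here a second cluster stood, with SP1 at +1638 bp (447, 5.27%), YY1 at +1586 bp (132, 10.7%) and +1947 bp (122, 11.5%), and NRF1 at +1673 bp (6.30, 48.8%) and +1929 bp (5.76, 52.5%). From E2F3-202 the SP1 summit is at −162 bp and the YY1 summits at −214 and +147 bp. The SP1 scores of the promoters were 494 and 447, and the highest YY1 scores 1073 and 132. The only other E2F3 summits within 2000 bp of the gene record's start, SP1 at +770 bp (81.9) and +1136 bp (84.6), lay between the promoters. That window cuts off what lies further in. Within 2000 bp of E2F3-202 the highest NRF1 summit was at +969 bp from that start (9.96, 36.2%). Counted from every protein-coding transcript start, E2F3 had 6 SP1, 6 NRF1 and 8 YY1 summits. No ZNF143 summit lay within 500 bp of the internal start.

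E2F4, which works with RBL1 and RBL2 in resting cells, lies on the plus strand of chromosome 16, from 67192155 to 67198918 (ENSG00000205250.9). It had the highest ZNF143 summit of the family, at −23 bp (29.4, 34.6%), 24 bp from its only SP1 summit at −47 bp (329, 7.30%). Its only YY1 summit (231, 6.31%) was at +114 bp in the coding part of the first exon. NRF1 was weak, with scores of 4.44 at −97 bp, 4.44 at +239 bp and 2.53 at −244 bp. The protein-coding gene EXOC3L1 starts on the other strand at −1970 bp.

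The E2F4 promoter is shown because it holds the strongest ZNF143 summit and no E2F, NRF1, YY1 or ZNF143 word. The stretch is chr16:67192035-67192154 (plus strand), ends at −1 bp, and has in capitals the single bases called as the NRF1 (−97), SP1 (−47) and ZNF143 (−23) summits, in that order.
E2F4: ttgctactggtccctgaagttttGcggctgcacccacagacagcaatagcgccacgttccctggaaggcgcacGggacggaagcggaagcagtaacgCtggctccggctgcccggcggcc

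E2F6, the repressor that works with Polycomb proteins, lies on the minus strand of chromosome 2, from 11444375 to 11466177 (ENSG00000169016.17). It had only 5 summits, but the highest SP1 score of the family at −85 bp (1805, 0.769%) and the highest NRF1 score at −1 bp (6914, 2.23%). Among genes with a summit of the list, 3.60% ranked as high for SP1 and 8.12% for NRF1. The YY1 summit at +113 bp scored 485 (3.17%), and ZNF143 summits lay at −99 bp (3.76, 86.6%) and +459 bp (7.64, 65.1%). SP1 and the upstream ZNF143 summit were 14 bp apart, and both had the E2F word that ends at −55 bp within 50 bp. The NRF1 summit had the NRF1 and the YY1 word of the site printed above within 50 bp, whereas the YY1 summit lay 74 bp from the middle of the YY1 word.

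E2F7, a repressor induced late in the cell cycle, lies on the minus strand of chromosome 12, from 77021248 to 77065569 (ENSG00000165891.16), and had 9 summits and no ZNF143. Its single SP1 summit (614, 3.66%) was at −189 bp, with 2 NF-Y words and an SP1 word within 50 bp. YY1 was highest upstream, at −317 bp (209, 6.94%) and −425 bp (204, 7.10%), with a lower summit at +174 bp (98.8, 13.8%). NRF1 had 5 summits, at +90 bp (22.3), −260 bp (16.1), −712 bp (5.75), +723 bp (4.95) and +1023 bp (3.87). Both upstream YY1 summits thus lay upstream of the SP1 summit.

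E2F8, the other late repressor, lies on the minus strand of chromosome 11, from 19224063 to 19241620 (ENSG00000129173.13). The gene record begins at 19241620, E2F8-204 begins 22 bp further in, and the Ensembl canonical transcript E2F8-201 begins 675 bp further in. SP1 had a summit near the record's start and another near the canonical start, at −8 bp (330.3, 7.28%) and at +522 bp (838, 2.48%), which is −153 bp from the canonical start and had an E2F word within 50 bp. The NRF1 summit at +423 bp (239, 11.1%) and the ZNF143 summit at +591 bp (2.11, 97.6%) also lay between these starts, at −252 and −84 bp from the canonical one. YY1 had summits at +197 bp (80.9, 16.3%) and +873 bp (67.2, 18.9%), the first 197 bp inside the record's start and the second 198 bp inside the canonical one. SP1 summits at +1551 bp (4.50) and +1852 bp (2.38) were weak.

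E2F5, which like E2F4 binds RBL1 and RBL2, lies on the plus strand of chromosome 8, from 85177154 to 85217158 (ENSG00000133740.11), and had 11 summits. SP1 at +63 bp (269, 8.76%) and YY1 at +114 bp (129, 11.0%) stood 51 bp apart in the untranslated first exon. In the first intron YY1 at +646 bp (143, 9.96%) and SP1 at +673 bp (87.5, 19.4%) stood 27 bp apart. The ZNF143 summit at +849 bp (9.83, 57.9%) was the second highest of the family. NRF1 was found only in the intron, at +1087 bp (6.14, 50.1%), 19 bp from an SP1 summit at +1068 bp (35.6), and at +1463 bp (2.46). The remaining summits were SP1 at +1584 bp (9.07) and +1783 bp (4.50) and YY1 at −494 bp (2.45). The noncoding genes E2F5-DT and ENSG00000254208 start on the other strand at −92 and +996 bp.

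**Figure D3:**
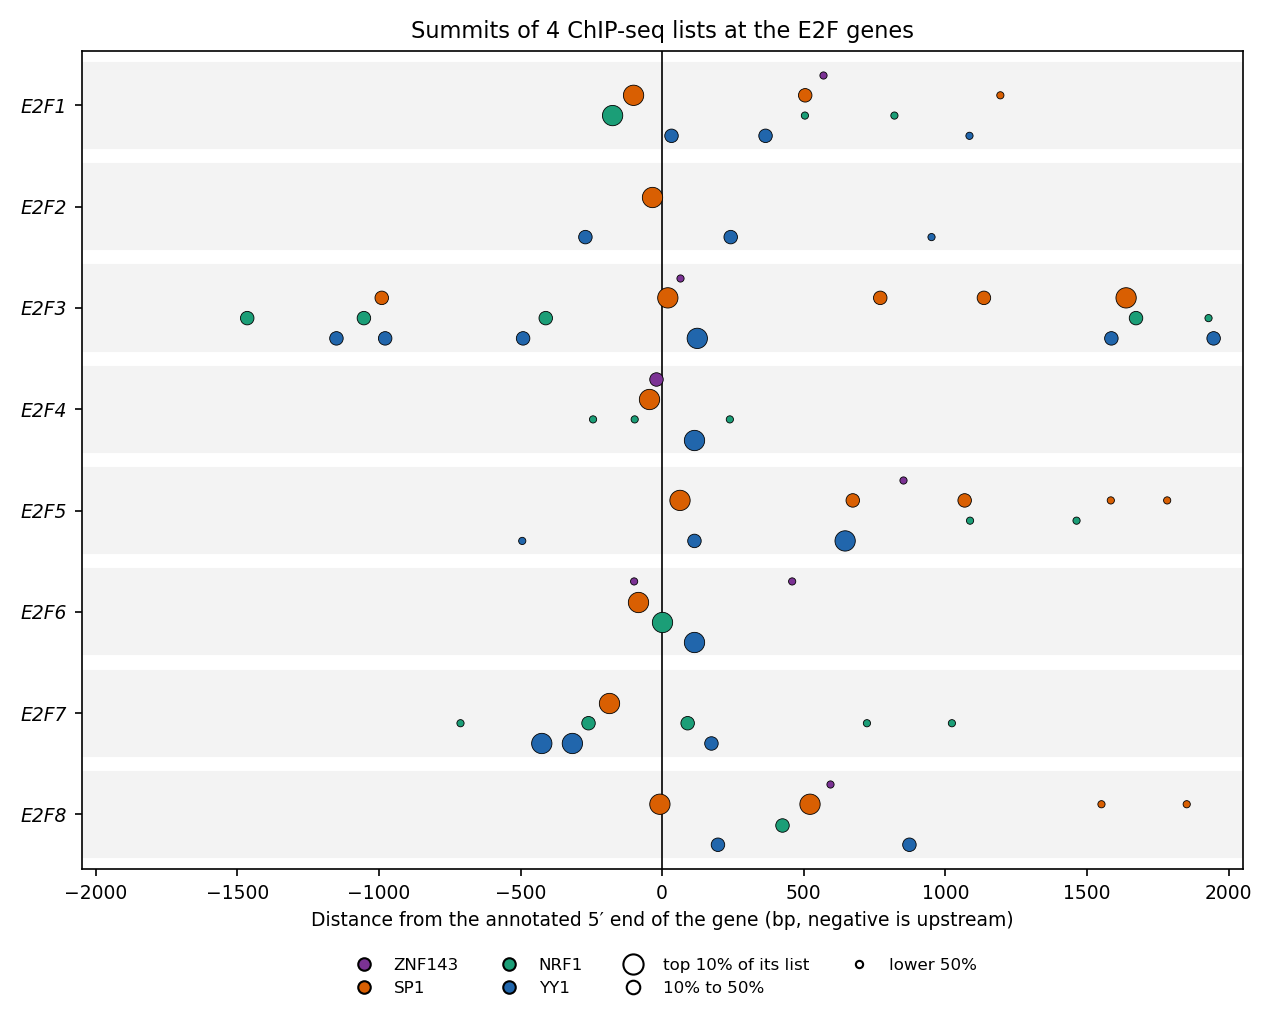
All 70 summits of the 4 lists within 2000 bp of the 5′ end of each E2F gene, with distance in bp on the x axis, 1 line per list within each gene and point size by rank in the list. The largest points gather near the 5′ end, E2F3 shows a second cluster near its internal start, and the ZNF143 points are nearly all small.

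In all, the 8 genes had 70 summits, of which 25 were upstream, 13 in untranslated exons, 4 in coding exons and 28 in introns. The number per gene ran from 4 to 17 with a median of 8.5, and the median over genes with any summit was 7. Summits of 1 peak are not independent, and 57 of the 70 shared a called peak with another summit. From 2000 to 10000 bp away the 8 genes had no ZNF143 summit in total, 8 SP1, 3 NRF1 and 12 YY1 summits, or means of 0, 1, 0.375 and 1.5 per gene. Over all genes the means at that distance were 0.204, 1.46, 0.517 and 1.33.

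A summit of another list lay within 100 bp of 39 of the 70. By list these were 5 of 7 ZNF143 summits, 12 of 21 SP1, 12 of 20 NRF1 and 10 of 22 YY1. Over the summits near the 5′ end of any protein-coding gene, by the same 2000 bp, the shares were 81.9% (ZNF143), 60.4% (SP1), 53% (NRF1) and 56.1% (YY1). Read against these shares, the counts do not set the members apart.

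Within 50 bp of the summits, 7 of the 21 SP1 summits had a whole SP1 word, beside 27.3% of SP1 summits near 5′ ends. The NRF1 word was at 1 of 20 NRF1 summits, that of E2F6, beside 2.77%. The YY1 word was at 0 of 22 YY1 summits (3.22% near 5′ ends) and the ZNF143 words at 0 of 7 ZNF143 summits (3.54%), counts too small to set apart from these shares. E2F words were at 3 of 21 SP1 summits, those of E2F2, E2F6 and E2F8, beside 2.52%, and at 1 of 7 ZNF143 summits, that of E2F6, beside 3.71%. They were at 0 of 20 NRF1 summits and 0 of 22 YY1 summits, beside 2.46% and 2.45%.

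Near the 5′ end SP1 lay upstream of YY1 in most members, as it did in most genes. Taking the highest summit of each list within 500 bp, a comparison chosen after the summits were seen, SP1 lay upstream of YY1 in 7 of 8 members and in 62.6% of the 11017 protein-coding genes that had both. With 8 genes this count cannot be set apart from that share. The 500 bp limit leaves out the highest SP1 summit of E2F8 (838), at +522 bp and downstream of its YY1 summit at +197 bp. It also leaves out the highest YY1 summit of E2F5 (143), at +646 bp, so the lower one at +114 bp (129) was used. Within 1000 bp the count was 6 members. The YY1 summit lay at +33, +242, +124, +114, +114, +113, −317 and +197 bp in E2F1 to E2F8. Measured from the gene records, those of E2F4, E2F5 and E2F6 were within 1 bp of each other. The canonical E2F6 transcript begins 16 bp further in, and from its start the E2F6 summit lies 16 bp closer. The SP1 summit lay at −101, −35, +20, −47, +63, −85, −189 and −8 bp in the same order. The median positions were −41 bp for SP1 and +114 bp for YY1 in the members, and −38 and +60 bp over all genes with such a summit. The distance from SP1 to YY1 had a median of 147.5 bp in the members, from −128 to 277 bp, and of 37 bp over all genes with quartiles of −40 and 152 bp.

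**Figure D4:**
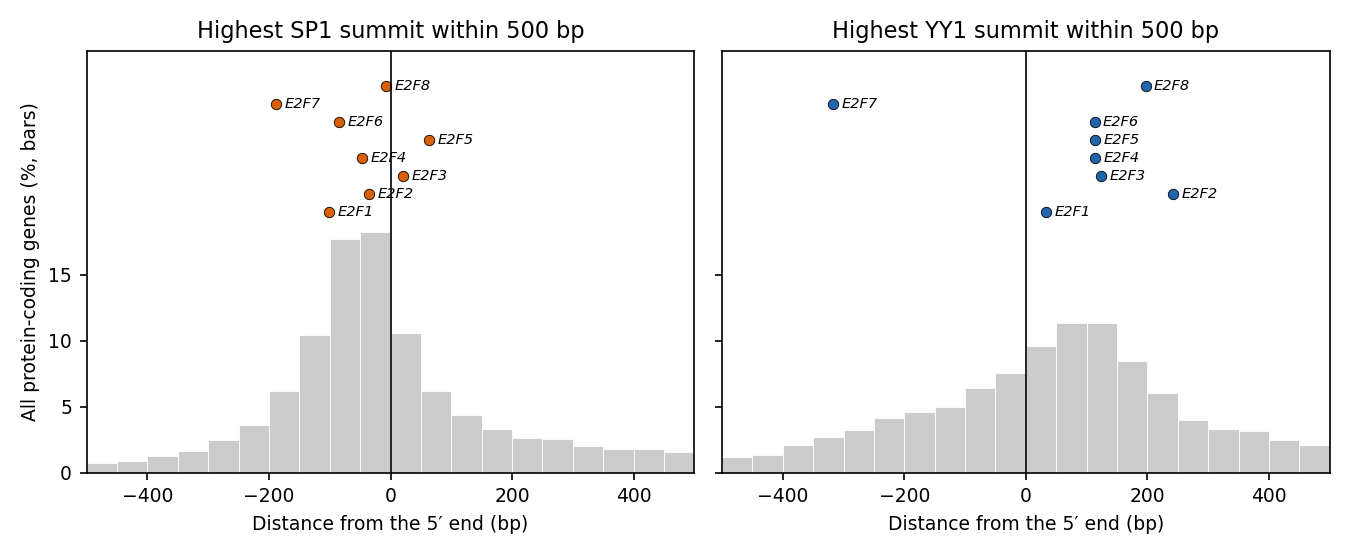
Position of the highest SP1 (left) and YY1 (right) summit within 500 bp of the 5′ end, in bp, for each E2F gene (points) above the distribution over all protein-coding genes with such a summit (bars, percent of genes in bins of 50 bp). YY1 points lie between +33 and +242 bp in every member but E2F7, at −317 bp.

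The profiles of the 4 highest ranks were compared as Euclidean distances over 4 log10 values, with 100% where a list had no summit. They take no account of position within the 2000 bp. By these profiles E2F4 and E2F5 were the closest pair of members (0.324), followed by E2F1 and E2F8 (0.366). Within 500 bp, however, E2F4 had ZNF143 and NRF1 summits and E2F5 had neither. E2F6 was the farthest member from each of the other 7, with distances from 1.13 to E2F8 to 2.08 to E2F2. For 7 members the nearest pathway genes were BUB1 for E2F1 (0.279), CCND2 for E2F2 (0.301), CCNA2 for E2F3 (0.482), TFDP2 for E2F5 (0.322), CDKN2D for E2F6 (0.648), and CDKN2A for E2F7 (0.213) and E2F8 (0.398).

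The proteins that work with the family were looked at in the same way, as 61 genes in 6 groups. SP1 was found at 59, NRF1 at 55, YY1 at 60 and ZNF143 at 43 of the 61, and 42 had all 4. Over all protein-coding genes the shares were 66.5% for SP1, 55.8% for NRF1, 65.3% for YY1, 37.4% for ZNF143 and 35.3% for all 4. These shares are also the background for the group counts below, which were not tested. The highest ZNF143 summit had a median rank of 26.6% over the 43 pathway genes that had one. The median was 81.1% over the 6 E2F members and 38.2% over the 7464 protein-coding genes that had one, a difference that was not tested. The median ranks for SP1, NRF1 and YY1, over the pathway genes with a summit of each list, were 6.82, 12.7 and 7.39%.

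The DP partners TFDP1 and TFDP2, with which E2F proteins pair, both had SP1, NRF1 and YY1 summits and neither had ZNF143. TFDP1 had the higher NRF1 summit (2033, 6.08%), and TFDP2 the higher SP1 (249, 9.37%) and YY1 summits (113, 12.3%). The pocket proteins RB1, RBL1 and RBL2, which bind E2F proteins, had all 4 lists. RBL1 had ZNF143 at 18822 (0.711%), SP1 at 576 (3.95%) and YY1 at 742 (2.21%), and RBL2 had the highest NRF1 summit of the 3 (3492, 4.55%). The ZNF143 summit of RBL1 thus ranked far above any in the E2F genes. That of RBL2 (7219, 3.75%) did so too, but that of RB1 (8.12, 64.1%) ranked below those of E2F4 and E2F5.

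All 7 genes of the MuvB complex and its MYB partners had ZNF143, SP1 and YY1, and 6 had NRF1. The highest ZNF143 summit was at LIN37 (score 15314), which also led for NRF1 (5101, 3.32%), while RBBP4 led for SP1 (2454, 0.413%) and LIN9 for YY1 (3571, 0.423%). Of 13 genes of the variant Polycomb complex that holds E2F6, 9 had ZNF143, 12 SP1, 11 NRF1 and 12 YY1, led by MAX (13808, 1.45%), HDAC1 (3054, 0.282%), CBX1 (7669, 1.83%) and CBX3 (4383, 0.317%) in that order. HDAC2, a histone deacetylase, was the only pathway gene with none, and its gene record starts 40160 bp upstream of the canonical transcript. All 4 factors had a summit within 223 bp of the canonical start.

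Of 17 genes grouped as cyclins, kinases and inhibitors, with SKP2 placed among them, 9 had ZNF143, 16 SP1, 14 NRF1 and all 17 YY1. They were led by SKP2 for ZNF143 (7260, 3.72%), CDKN2D for SP1 (941, 2.14%), CCNE2 for NRF1 (6006, 2.75%) and CCND3 for YY1 (3246, 0.475%). Of 19 textbook E2F targets, all had SP1, NRF1 and YY1 and 15 had ZNF143. CDC25A, a phosphatase that activates cyclin-dependent kinases, led for ZNF143 (8623, 3.10%), the helicase subunit MCM4 for SP1 (1902, 0.693%), the replication clamp PCNA for NRF1 (5570, 3.04%) and the ribonucleotide reductase subunit RRM1 for YY1 (6380, 0.173%).

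**Figure D5:**
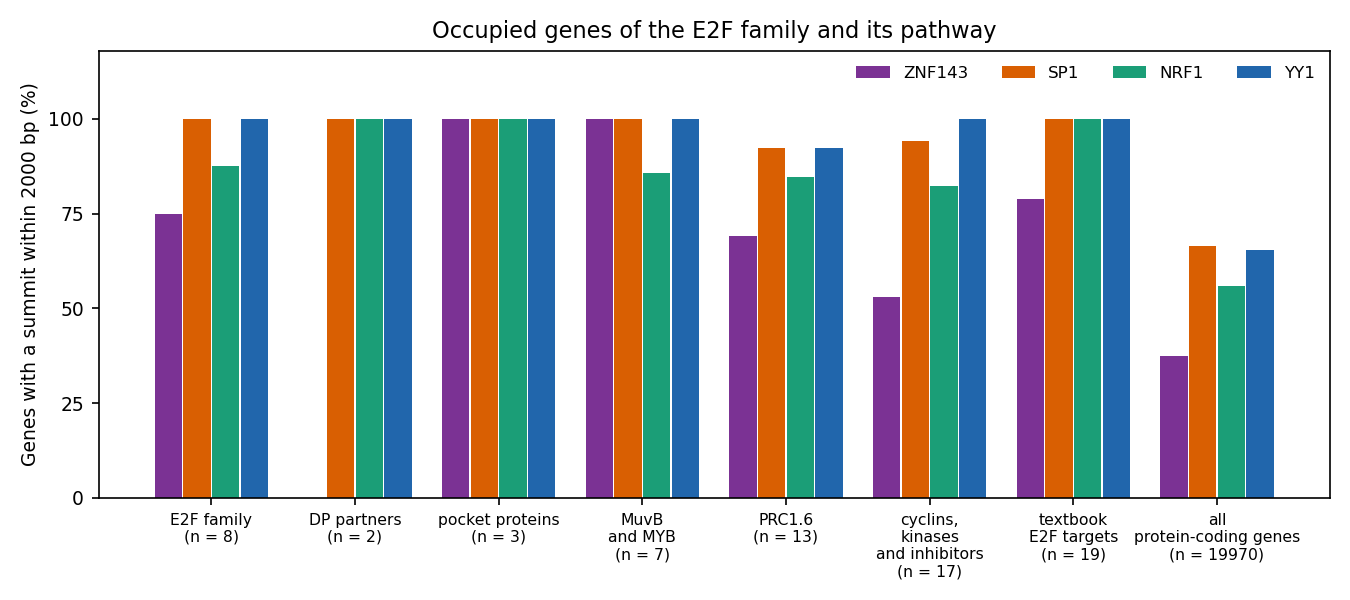
Share of genes with a summit within 2000 bp of the 5′ end, in percent, for the E2F family, 6 groups of pathway genes and all protein-coding genes, with 1 bar per list and the number of genes under each group. ZNF143 is found at 75% of the family and at neither DP partner, and YY1 at every gene of the family and of the pathway groups other than PRC1.6 (12 of 13), the variant Polycomb complex.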

How the data were processed

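ChIP-seq summit lists for ZNF143, SP1, NRF1 and YY1 were used as the authors deposited them. Column 5 of each list holds the deposited −log10 values, whether of p or q not stated. Per the submitters' processing notes, cutadapt, Bowtie2, SAMtools 1.16.1, MACS3, bedtools and the build hg38 were used, in no stated role or order. Peak-calling settings, filters and how samples were pooled are not given in the sources used here. The labels tie untreated and treated samples alike to 1 SP1 list and 1 ZNF143 list. For NRF1 and YY1 no list is given in the labels, so the antibody in the list's name decided. Read depth is unknown.

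From these lists, offsets were computed from the 5′ end of GENCODE 44 gene records, negative upstream on the gene's strand, with ranks in the whole list where ties share the best rank. A peak with several summits gives several entries. Neighbouring genes can share summits, so genes are not independent. The gene name rule took all 8 members. Of 61 pathway genes, the text names the best-ranked gene per group and list, any gene without a summit, and each member's nearest profile, of which 1 is not reported here. The members and lists were chosen with earlier results of these data known. No test was made. Words were matched exactly on hg38, and the counting was tested on simulated data. Python 3.11.15, pandas 2.3.3, numpy 2.4.6, scipy 1.17.1, pysam 0.24.0 and matplotlib 3.10.9 were used. Alternatives were other distances, other 5′ ends, stricter or equally long lists, and other distances for shared summits and words.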

Additional observations from a re-analysis of the deposited data

How the results depend on the processing

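Of 114 alternative values for 28 results, 85 were labelled the same as the reported value and 29 moved, but some of the 85 also differed from it. With lists of equal length 6 members had a YY1 summit, E2F1 and E2F8 having none. An NRF1 summit was left at 5 members with equal lengths and at 5 in the top 50%. SP1 summits shared within 50 bp were 8. Within 500 bp 3 members had a ZNF143 summit, as did 6323 of the 19970 protein-coding genes, and 3 had all 4 lists. For the other member counts in this section no share over all genes is given, so they cannot be read against a background. In the top 50% of each list 1 member had ZNF143 and 0 had all 4 lists, and with lists of equal length 2 had all 4. Summits at members fell within 500 bp to 4 (ZNF143), 8 (SP1), 9 (NRF1) and 14 (YY1), and within 1000 bp to 13 for SP1 and 13 for NRF1. The top 50% left 1 ZNF143 and 9 NRF1 summits, and equal lengths left 10 SP1, 8 NRF1 and 11 YY1 summits. Median best ranks within 500 bp were 65.1% (ZNF143), 6.31% (SP1), 15.3% (NRF1, also within 1000 bp) and 8.95% (YY1). Shared summits within 50 bp were 3 for ZNF143, 5 for NRF1 and 3 for YY1, within 250 bp 18 for YY1, and in the top 50% 1 for ZNF143. A word of the own factor was within 25 bp of 3 SP1 and 0 NRF1 summits, and within 100 bp of 1 YY1 summit. SP1 lay upstream of YY1 in 8 members within 250 bp, 6 within 1000 bp and 6 within 2000 bp, distances added after the data were seen. No replicate could be left out, and no paired analysis was possible because the lists give no value per sample. Unknown depth limits every absence to these lists.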
